A study of Homo sapiens with 9 samples.

Results

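The sterol and fatty acid synthesis genes are a list of 32 human genes of the SREBP pathway, and 29 of them were measured here, of 17958 genes analysed in all. A gene was counted as measured where a probe set named it alone, and where several did, the brightest over the 9 arrays was taken, as for CYP51A1 and SCD. ACAT2 and HSD17B7 share their probe sets with another gene symbol and FDFT1 was not analysed here. The genes were chosen by name and not by their values, although earlier results of these data were known when the list was drawn up.

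The cells were HCT 116, an established human colorectal carcinoma line, and RNA was taken 24 hours after transient transfection. The KL-FL group received a vector for mouse full-length klotho, the KL1 group a vector for the mouse KL1 subdomain alone, and the control group the empty vector pcDNA3. Klotho, a membrane protein, partners FGF receptors in the response to FGF23, and KL1 is one of its extracellular domains. Each group had 3 arrays, 9 in all, and the deposited values are read as log2 expression values. JetPEI or polyethylenimine served as the transfection reagent, the labels do not say for which array, and the share of cells that took up a vector is not given in the sources used here. The expression of the vectors was not checked here. The labels leave unsaid whether the arrays of a group came from separate cultures. The p-values therefore cover spread among these arrays alone, possibly of a technical kind, and having 3 arrays a group limits all precision.

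The markers of the line were those of an epithelium. Of 10 epithelial markers 9 were measured, with mean log2 values from 6.41 for CLDN3 to 10.7 for KRT8, and EPCAM at 9.79. The 10 fibroblast and endothelial markers ran from 2.55 for DCN to 5.77 for COL1A1, with a median of 3.51. The 9 leukocyte markers ran from 2.74 for PTPRC to 6.17 for CD68, with a median of 3.42, and CD68 was brighter than 61.2% of all genes. The 8 hepatocyte and adipocyte markers ran from 2.57 for CYP7A1 to 5.17 for APOA1, with a median of 3.52. The lowest value of the table is 1.79. Between arrays, the means of the epithelial markers around their 9-array mean were -0.0025, 0.089 and -0.17 with KL-FL, 0.055, -0.060 and -0.015 with KL1 and -0.0018, 0.046 and 0.055 in control, so KL-FL replicate 3 was the lowest. Over all 33297 probe sets of the deposited table KL-FL replicate 3 also stood apart. Its correlations to the other 8 arrays had a median of 0.994, against 0.996 for KL1 replicate 2 and 0.997 to 0.998 for the rest. Detection calls were not used here, so low values do not separate weak from lacking expression.

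Cells make cholesterol and fatty acids from acetyl-CoA. The transcription factors SREBP-2, encoded by SREBF2, and SREBP-1, encoded by SREBF1, are made as precursors in the membrane of the endoplasmic reticulum. SCAP escorts them to the Golgi for cleavage when sterols are scarce, and INSIG1 holds SCAP back when sterols are plentiful. The freed factors enter the nucleus and raise transcription of most enzymes of the list, and of INSIG1 itself, which closes a feedback loop. Tumour cells in culture are known to run this pathway actively, and its output is known to follow the supply of lipid in the medium.

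The promoters were searched for letters that these factors and their partners are known to read. Sterol regulatory elements were searched as TCACNCCAC and NF-Y boxes as CCAAT, on both strands, in RefSeq windows of GRCh38.p14 that run from 250 bases before each transcript start to 50 after it. Of the 32 genes, 28 matched the table, with 40 windows. CCAAT lay in 65% of these windows, against 34.6% of all 35116 windows. By gene it lay in 22 of the 28, against 39.7% of all 27305 genes with a window. The sterol element in this exact spelling lay in 1 of the 40 windows, that of SREBF2, and in 1.13% of all windows. The E-box CACGTG, which SREBP-1 is also known to bind, lay in 12.5% of the 40 windows and in 7.26% of all, and the GC box GGGCGG of the partner factor Sp1 in 87.5% and 45%. No searched letters of one kind overlapped those of another in the printed windows. A match describes letters and is not a shown binding site, and a window without a match says only that these letters are not in it.

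The window of SREBF2 is shown because it holds both elements, the sterol element 133 bases before the start and, 106 bases before it, CCAAT on the opposite strand. Those of SCD, MSMO1, ACLY, SC5D and IDI1 are shown as the windows with CCAAT of the 5 such members with the highest mean array values, and that of INSIG1 because this gene spread widely among the controls, a choice made after its values were seen. Each reads 5′ to 3′ on the strand of its gene, with sterol elements and CCAAT letters of either strand in capitals. They lie at chr22:41832855-41833154 on the plus strand, chr10:100346983-100347282 on the plus strand, chr4:165327419-165327718 on the plus strand, chr17:41918973-41919272 on the minus strand, chr11:121292521-121292820 on the plus strand, chr10:1048837-1049136 on the minus strand and chr7:155297628-155297927 on the plus strand.
SREBF2: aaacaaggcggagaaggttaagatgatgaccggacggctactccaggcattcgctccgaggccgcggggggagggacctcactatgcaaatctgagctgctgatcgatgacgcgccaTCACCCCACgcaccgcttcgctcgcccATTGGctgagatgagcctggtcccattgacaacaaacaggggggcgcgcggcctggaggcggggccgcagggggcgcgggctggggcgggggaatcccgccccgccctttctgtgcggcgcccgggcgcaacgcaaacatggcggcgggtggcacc
SCD: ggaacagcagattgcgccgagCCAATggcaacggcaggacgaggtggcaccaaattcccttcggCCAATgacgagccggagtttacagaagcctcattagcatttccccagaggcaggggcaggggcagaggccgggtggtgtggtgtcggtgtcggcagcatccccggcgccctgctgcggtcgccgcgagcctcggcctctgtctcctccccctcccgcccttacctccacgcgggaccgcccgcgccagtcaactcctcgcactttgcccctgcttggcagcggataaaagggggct
MSMO1: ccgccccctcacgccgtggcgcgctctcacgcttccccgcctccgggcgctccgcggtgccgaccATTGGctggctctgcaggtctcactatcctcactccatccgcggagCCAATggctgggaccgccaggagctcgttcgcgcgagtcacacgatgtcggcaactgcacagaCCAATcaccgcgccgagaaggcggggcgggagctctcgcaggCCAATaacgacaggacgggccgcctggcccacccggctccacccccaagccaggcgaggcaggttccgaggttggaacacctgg
ACLY: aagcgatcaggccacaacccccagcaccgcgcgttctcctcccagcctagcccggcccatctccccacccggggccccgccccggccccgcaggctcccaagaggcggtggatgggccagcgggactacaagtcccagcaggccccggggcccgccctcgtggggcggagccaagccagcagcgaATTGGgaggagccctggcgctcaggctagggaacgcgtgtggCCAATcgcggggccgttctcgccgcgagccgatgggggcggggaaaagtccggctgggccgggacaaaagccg
SC5D: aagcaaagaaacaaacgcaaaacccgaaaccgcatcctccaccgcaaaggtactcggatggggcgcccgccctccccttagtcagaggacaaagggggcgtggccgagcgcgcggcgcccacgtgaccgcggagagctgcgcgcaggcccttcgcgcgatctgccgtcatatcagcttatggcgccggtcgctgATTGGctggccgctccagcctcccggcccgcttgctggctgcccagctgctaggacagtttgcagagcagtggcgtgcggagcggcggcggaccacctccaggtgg
IDI1: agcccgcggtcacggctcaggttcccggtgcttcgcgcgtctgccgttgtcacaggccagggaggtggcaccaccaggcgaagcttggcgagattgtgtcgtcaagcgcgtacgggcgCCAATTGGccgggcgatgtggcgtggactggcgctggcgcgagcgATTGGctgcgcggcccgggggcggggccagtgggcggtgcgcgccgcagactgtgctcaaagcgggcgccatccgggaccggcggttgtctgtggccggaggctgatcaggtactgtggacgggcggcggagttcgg
INSIG1: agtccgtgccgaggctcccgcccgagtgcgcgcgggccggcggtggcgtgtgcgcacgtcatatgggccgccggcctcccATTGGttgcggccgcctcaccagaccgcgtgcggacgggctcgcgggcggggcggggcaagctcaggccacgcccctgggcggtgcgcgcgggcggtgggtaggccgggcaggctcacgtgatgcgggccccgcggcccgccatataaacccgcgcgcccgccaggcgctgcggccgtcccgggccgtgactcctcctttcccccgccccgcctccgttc
MSMO1 holds CCAAT letters at 4 places, more than the other windows shown. In IDI1 CCAAT letters of both strands overlap in a single run.

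No gene of the list passed the test in any of the 3 comparisons, and the difference from control exceeded the spread among the 3 empty-vector arrays in 5 of 29 genes with KL-FL, where 29.1% of all genes did so, and in 4 of 29 with KL1, where 24.9% did. In RNA of whole cultures fewer cells with an RNA and less RNA per cell cannot be told apart. Taken as a mean over the 29 genes, the log2 level was 7.93 ± 0.033 with KL-FL, 7.92 ± 0.011 with KL1 and 7.95 ± 0.063 in control (SD, n = 3 each). Around the mean of all 9 arrays the KL-FL arrays lay at -0.027, 0.035 and -0.014, the KL1 arrays at -0.0071, -0.0058 and -0.026 and the controls at -0.053, 0.026 and 0.071. All 6 klotho arrays thus lay between the lowest and the highest control. In limma over all genes 0 of 29 members were called in each comparison. Of all genes, 0.00557% were called in each comparison with control, in both the single gene DDIT3, which encodes the stress factor CHOP, and 0% between KL-FL and KL1.

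**Figure D1:**
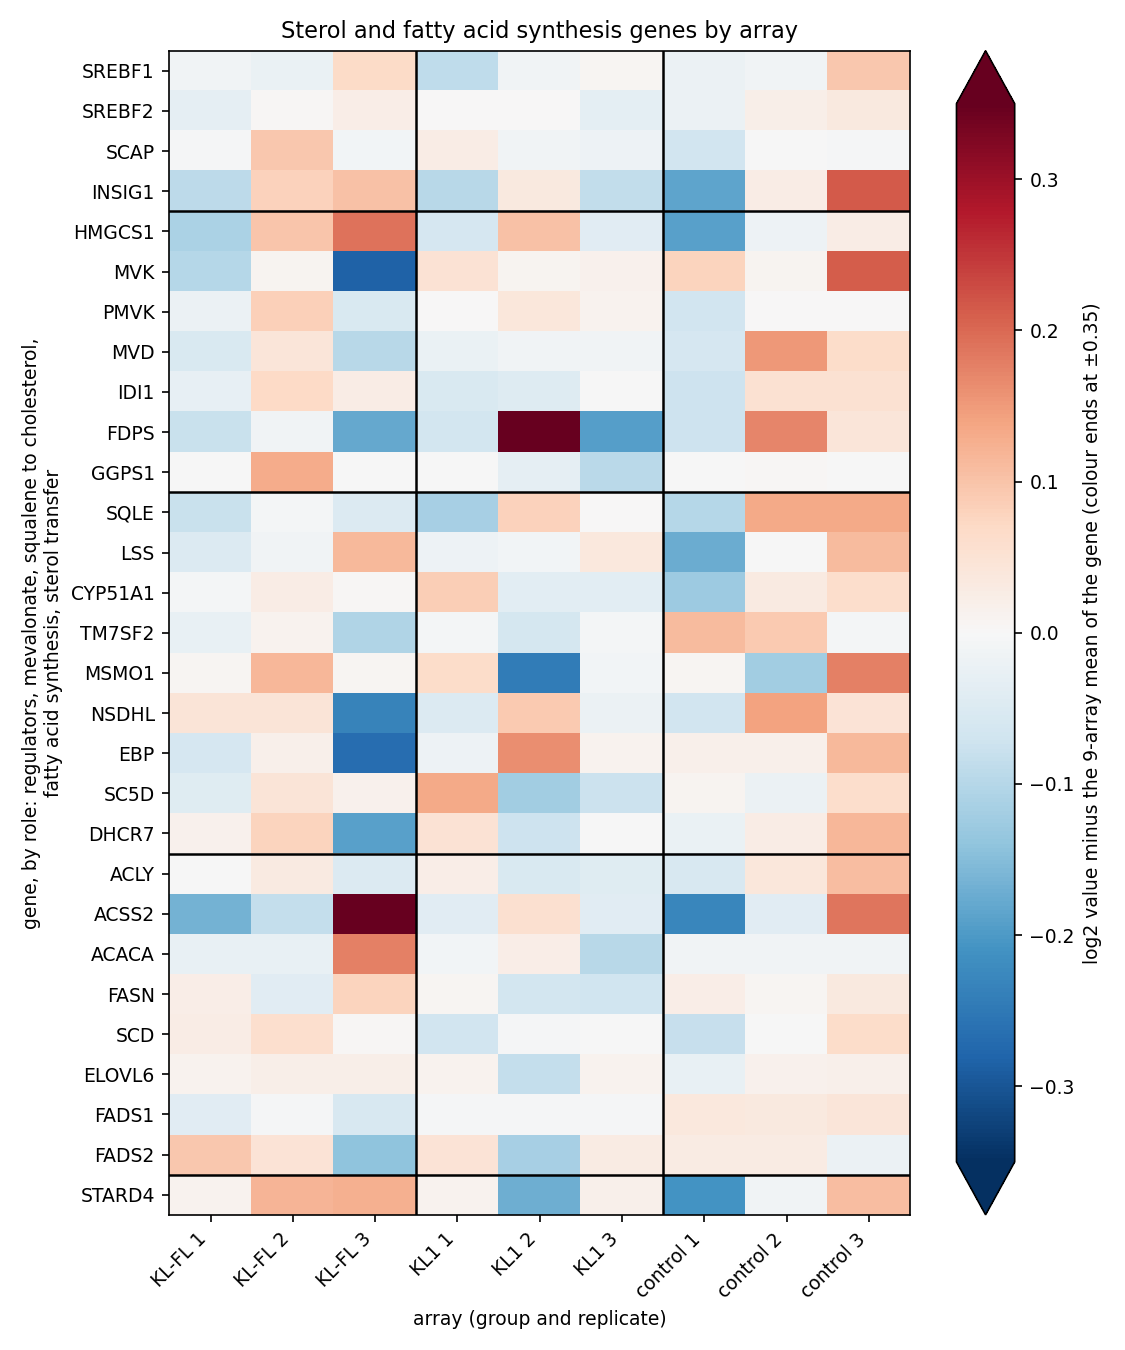
Each row is 1 of the 29 genes, grouped by role with black lines, and each column 1 array, ordered KL-FL, KL1, control. Colour gives the log2 value minus the 9-array mean of that gene, blue below that mean and red above it. The column of control replicate 1 is mostly blue and that of control replicate 3 mostly red, and the column of KL-FL replicate 3 holds both strong blues and strong reds.

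Control replicate 1 had the lowest of the 3 control values in 19 of 29 genes, where 28.6% of all genes had it lowest, and control replicate 3 had the highest in 19 of 29, where 24.3% of all genes did. Control replicate 3 lay above control replicate 1 in 25 of 29 genes, against 40.9% of all genes. The median of that difference was 0.12 over the list and -5e-05 over all genes. Most of the pathway thus shared a direction that all genes together did not have. The exceptions were TM7SF2 and FADS2, which lay lower on replicate 3, and ACACA and GGPS1, which had the same value on both. Over the 3 controls the median range of a member was 0.14, against 0.078 for all genes. A wide control range was not particular to this list. Its median was 0.22 in the hypoxia targets, 0.21 in the epithelial markers and 0.15 in the glycolysis genes, and below 0.14 in the other lists set beside the members. For a member the median range was 0.12 with KL-FL, against 0.11 for all genes, and 0.097 with KL1, against 0.091 for all genes. This spread was not tested, and the earlier results known when the list was drawn up already showed it.

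The widest control ranges belonged to ACSS2, INSIG1, STARD4, MSMO1 and LSS. ACSS2, which makes acetyl-CoA from acetate, read 7.44, 7.53 and 7.96 on the KL-FL arrays, 7.57, 7.67 and 7.57 on the KL1 arrays and 7.38, 7.57 and 7.80 on the controls. The controls alone spanned 0.42, wider than in 99.5% of all genes, and KL-FL replicate 3 stood above every other array. INSIG1, the brake on SREBP export, read 8.01, 8.18 and 8.20 on the KL-FL arrays, 8.001, 8.13 and 8.01 on the KL1 arrays and 7.91, 8.12 and 8.31 on the controls. Its lowest and its highest value were both controls, 0.40 apart. STARD4, a carrier of cholesterol between membranes, read 6.93, 7.04 and 7.04 on the KL-FL arrays, 6.93, 6.75 and 6.93 on the KL1 arrays and 6.71, 6.90 and 7.02 on the controls. Again control replicate 1 was lowest of all 9, while KL-FL replicates 2 and 3 and control replicate 3 were highest, within a few hundredths of each other. Its differences were 0.12 (standard error 0.082) with KL-FL and -0.0086 (standard error 0.082) with KL1. Without control replicate 1 they were 0.038 and -0.094, and without control replicate 3 0.20 and 0.065.

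A pair of late enzymes of cholesterol synthesis completed this set. LSS, which closes squalene epoxide into the sterol ring, read 7.23, 7.27 and 7.40 on the KL-FL arrays, 7.26, 7.27 and 7.32 on the KL1 arrays and 7.11, 7.28 and 7.39 on the controls. MSMO1, which removes methyl groups from early sterols, read 9.76, 9.87 and 9.76 on the KL-FL arrays, 9.82, 9.51 and 9.75 on the KL1 arrays and 9.76, 9.63 and 9.93 on the controls. In LSS control replicate 1 was again the lowest of all arrays, whereas in MSMO1 the low arrays were KL1 replicate 2 and control replicate 2, so this gene did not follow the order of the others. LSS differed by 0.038 with KL-FL and 0.023 with KL1, and MSMO1 by 0.023 and -0.085. At the narrow end stood ACACA, the first committed enzyme of fatty acid synthesis, with 8.55 on all 3 controls, GGPS1 with a control range of 0.0046 and FADS1 with 0.0080. Such repeated values are a property of the deposited table: 68.5% of all genes and 18 of the 29 members carry the same value on at least one pair of arrays, and 3.10% of all genes have 3 identical controls. The SD of such a gene rests on repeated values.

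**Figure D2:**
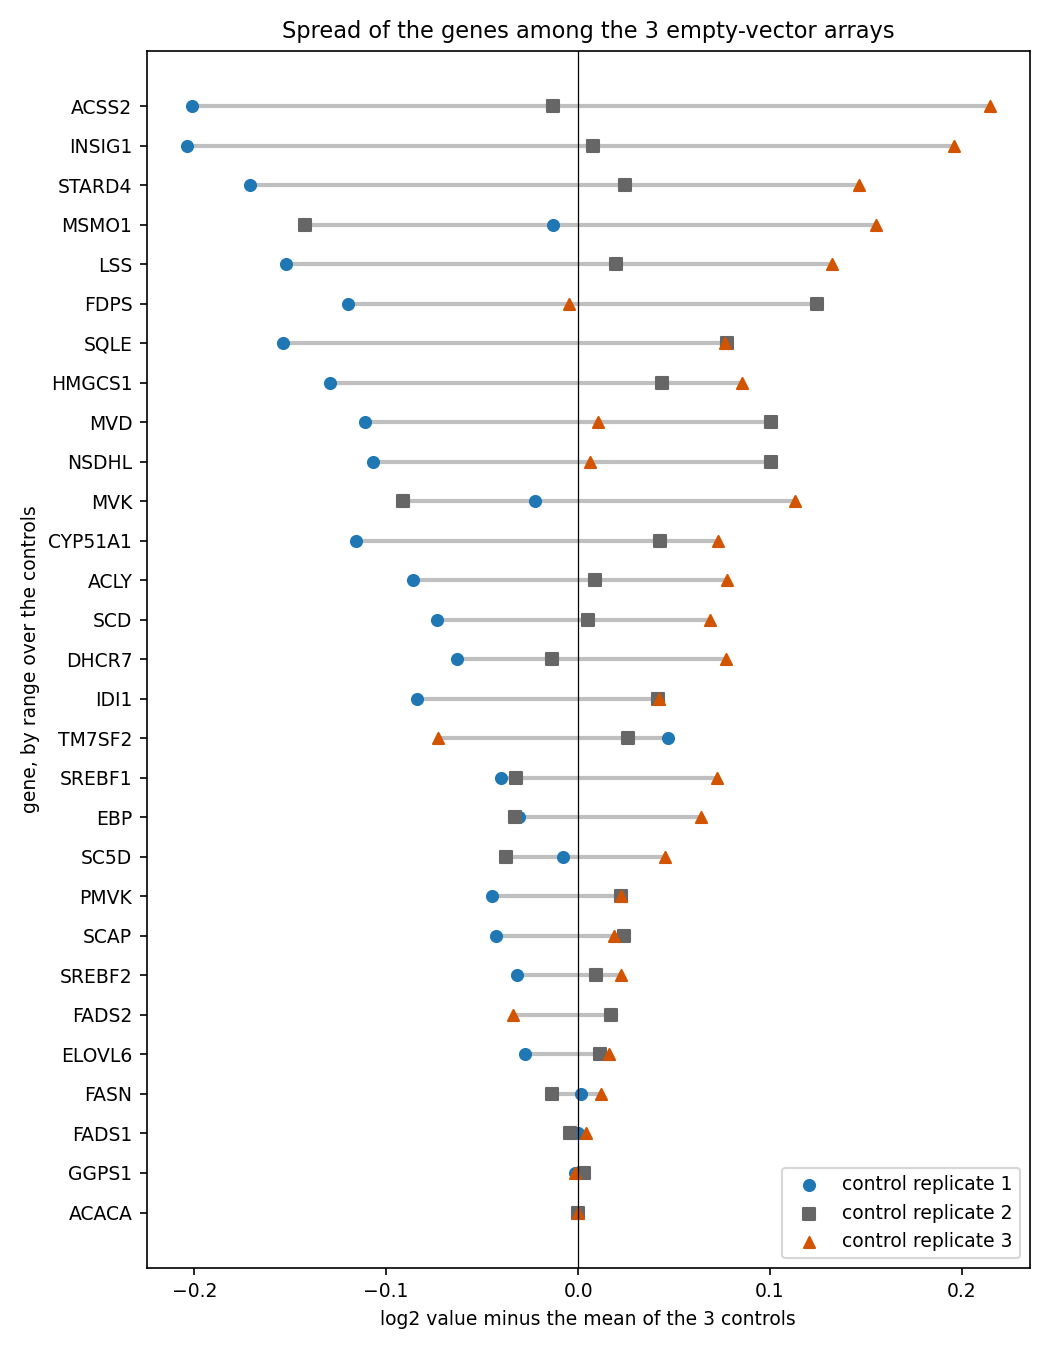
For each of the 29 genes, ordered by range, the log2 values of control replicates 1, 2 and 3 are drawn as circle, square and triangle around their mean, joined by a grey line. Replicate 1 is leftmost in 19 of the 29 rows and replicate 3 rightmost in 19, with both true in 13. The rows run from ACSS2 with a range of 0.42 at the top down to ACACA with a range of 0 at the bottom.

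Other pathways were set beside these values, from lists chosen by name. Hypoxia targets, 13 genes, had means on the 3 controls of -0.10, 0.059 and 0.15 around their 9-array mean, and glycolysis, 16 genes, of -0.046, 0.041 and 0.093. ERO1A stands in both the hypoxia and the chaperone list. Hypoxia and glycolysis genes thus had the same order of the controls as the sterol and fatty acid genes, and control replicate 3 lay above replicate 1 in 13 of 13 and 13 of 16 of their genes. ER chaperones did not have that order, with 0.057, 0.074 and -0.027 on the KL-FL arrays, 0.073, 0.13 and 0.019 on the KL1 arrays and -0.12, -0.072 and -0.14 on the controls, and each klotho array lay above each control. Of the 15 chaperones 0 were called in limma in either comparison, with 7 at an unadjusted p under 0.05 with KL-FL, where 4.88% of all genes were higher at that p, and 10 with KL1, where 2.99% were. All of these were higher than control. The part of these pathways in the control values of the synthesis genes was not tested.

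**Figure D3:**
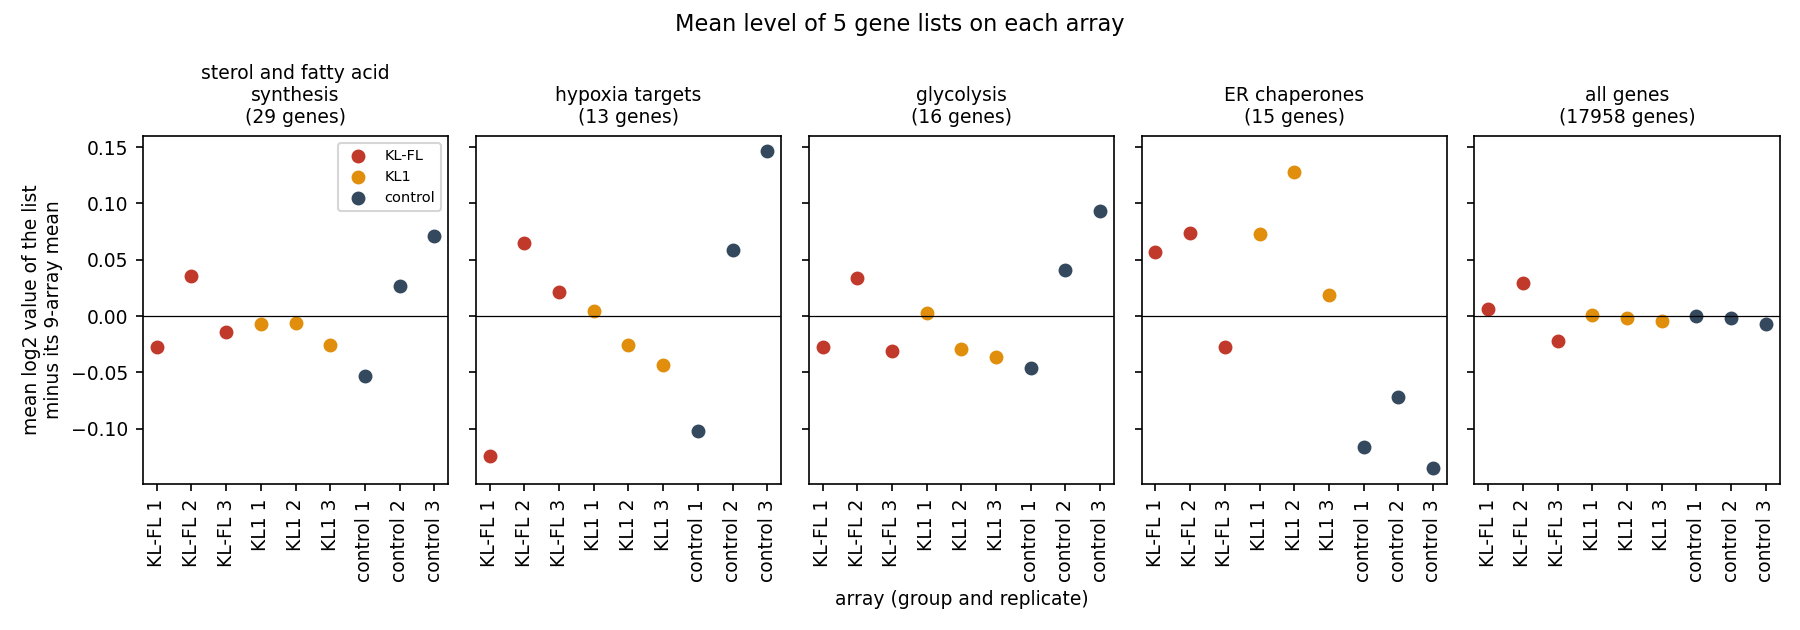
Each panel gives, for 1 list of genes, the mean log2 value on each array minus the 9-array mean of that list, with KL-FL, KL1 and control arrays from left to right. The sterol, hypoxia and glycolysis panels share the order of the 3 controls, the ER chaperone panel has all controls below all klotho arrays, and all genes stay within 0.029 of their mean.

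All 4 regulators were measured, and 0 of them passed the test. SREBF2 read 8.03, 8.07 and 8.09 on the KL-FL arrays, 8.06, 8.06 and 8.03 on the KL1 arrays and 8.04, 8.09 and 8.10 on the controls. Its differences were -0.013 (standard error 0.030) for KL-FL and -0.023 (standard error 0.030) for KL1, both smaller than its control range of 0.054. SREBF1 read 6.98, 6.97 and 7.06 on the KL-FL arrays, 6.90, 6.98 and 6.996 on the KL1 arrays and 6.97, 6.98 and 7.08 on the controls. The high arrays were KL-FL replicate 3 and control replicate 3, and the groups overlapped throughout, with differences of -0.010 for KL-FL and -0.052 for KL1. SCAP read 6.92, 7.02 and 6.92 on the KL-FL arrays, 6.95, 6.92 and 6.91 on the KL1 arrays and 6.86, 6.93 and 6.92 on the controls, with differences from control of 0.050 for KL-FL and 0.022 for KL1. The upper ends of their 95% intervals, from limma, were 0.14 and 0.11. INSIG1 differed by 0.013 (standard error 0.10) with KL-FL and by -0.067 (standard error 0.10) with KL1. Without control replicate 1 these became -0.089 and -0.17, and without control replicate 3 they became 0.11 and 0.031, so its sign depended on which control was kept.

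In the mevalonate and isoprenoid arm 7 of 8 genes were measured. MVK, which phosphorylates mevalonate, had the smallest p of the list in KL-FL against control. It read 6.09, 6.20 and 5.91 on the KL-FL arrays, 6.24, 6.20 and 6.21 on the KL1 arrays and 6.27, 6.20 and 6.40 on the controls. KL-FL replicates 1 and 3 lay below every control, and replicate 2 of all 3 groups carried the same value. The difference was -0.22 (SE 0.074, adjusted p = 0.688) in limma, or -0.15 without KL-FL replicate 3. With KL1 it was -0.074 (SE 0.074, adjusted p = 0.933). HMGCS1, which makes the precursor of mevalonate and is a classic SREBP-2 target, read 8.27, 8.47 and 8.57 on the KL-FL arrays, 8.32, 8.48 and 8.34 on the KL1 arrays and 8.19, 8.36 and 8.40 on the controls. Here KL-FL replicate 3 was the highest array, and the difference of 0.12 (standard error 0.085) with KL-FL was 0.054 without it. With KL1 the difference was 0.062 (standard error 0.085), or 0.012 without KL1 replicate 2 and -0.0025 without control replicate 1.

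PMVK, the next kinase after MVK, read 5.15, 5.25 and 5.12 on the KL-FL arrays, 5.17, 5.21 and 5.18 on the KL1 arrays and 5.10, 5.17 and 5.17 on the controls, and the groups overlapped. GGPS1, which makes the lipid that anchors many small GTPases, read 6.01, 6.14 and 6.01 on the KL-FL arrays, 6.01, 5.98 and 5.92 on the KL1 arrays and 6.01, 6.02 and 6.01 on the controls. It had the smallest p among members higher with KL-FL than with KL1, at 0.085 (SE 0.043, adjusted p = 0.855), and the same value, 6.01, stood on 5 arrays of all 3 groups. Without KL-FL replicate 2, its highest array, the difference from KL1 was 0.041, and that of KL-FL from control turned to -0.0015, against 0.042 with all arrays. FDPS, which makes farnesyl diphosphate, had one far value, 8.33 on KL1 replicate 2, beside 7.88 and 7.75 on the other KL1 arrays. Its difference of -0.0046 (standard error 0.13) with KL1 became -0.18 without that array. MVD and IDI1, which turn phosphorylated mevalonate into the active isoprene units, differed by -0.088 and 0.012 with KL-FL and by -0.070 and -0.044 with KL1.

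From squalene to cholesterol 9 of 11 genes were measured. With either vector 6 of the 9 lay below control on average, where 42.7% of all genes did with KL-FL and 47.8% with KL1. SQLE, squalene epoxidase, an early rate-setting step of the branch, read 8.56, 8.63 and 8.59 on the KL-FL arrays, 8.52, 8.72 and 8.64 on the KL1 arrays and 8.54, 8.77 and 8.77 on the controls. Control replicates 2 and 3 were the highest arrays and control replicate 1 was among the lowest, so the groups overlapped. The differences were -0.10 (standard error 0.071) with KL-FL and -0.066 (standard error 0.071) with KL1. Without control replicate 1 they were -0.18 and -0.14. TM7SF2, a sterol reductase, read 5.80, 5.84 and 5.72 on the KL-FL arrays, 5.82, 5.77 and 5.82 on the KL1 arrays and 5.94, 5.92 and 5.82 on the controls. Control replicates 1 and 2 were the highest arrays, with control replicate 3 within the klotho values, and its differences were -0.10 (SE 0.044, adjusted p = 0.689) and -0.090 (SE 0.044, adjusted p = 0.927) in limma for KL-FL and KL1, with the smallest p of the list in the KL1 comparison.

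EBP, a sterol isomerase, read 7.01, 7.09 and 6.80 on the KL-FL arrays, 7.05, 7.23 and 7.08 on the KL1 arrays and 7.09, 7.08 and 7.18 on the controls. It had the smallest p of the list between KL-FL and KL1, at -0.15 (SE 0.076, adjusted p = 0.855), and this difference became -0.073 without KL-FL replicate 3, the lowest array. NSDHL, DHCR7 and MVK shared that low array: KL-FL replicate 3 held the lowest of all 9 values in 8 of 29 members and the highest in 7, where it was lowest in 23.9% and highest in 14.0% of all genes. CYP51A1 differed by 0.019 with KL-FL and 0.015 with KL1, and its second probe set by 0.024 and 0.026. SC5D, which acts shortly before the last step, differed by -0.011 and -0.039, and DHCR7, which catalyses the last step of one route to cholesterol, by -0.072 and -0.047.

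All 8 fatty acid genes were measured. With KL1 7 of them lay below control, where 47.8% of all genes did, and with KL-FL 4, where 42.7% did. FASN, which builds palmitate, read 9.57, 9.51 and 9.63 on the KL-FL arrays, 9.56, 9.48 and 9.48 on the KL1 arrays and 9.57, 9.56 and 9.58 on the controls. With KL1 it differed by -0.063 (SE 0.038, adjusted p = 0.927), which exceeded its narrow control range of 0.026, and with KL-FL by -0.0013 (standard error 0.038). SCD, which puts the first double bond into stearate and palmitate, read 10.47, 10.51 and 10.45 on the KL-FL arrays, 10.38, 10.44 and 10.45 on the KL1 arrays and 10.37, 10.45 and 10.51 on the controls. All 3 KL-FL arrays lay above all 3 KL1 arrays, by 0.053 (standard error 0.041) on average. The gap was narrow, since the lowest KL-FL array read 10.4515 and the highest KL1 array 10.4475. SCD was thus the one member of 29 that did not overlap between these groups, against 4.67% of all genes in that direction and 2.21% in the other. The second SCD probe set, a dim one, differed from control by -0.12 with KL-FL and -0.16 with KL1, against 0.035 and -0.018 for the brighter one.

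FADS1, a desaturase of polyunsaturated fatty acids, was the one member whose klotho arrays did not overlap the controls, and it lay lower. It read 8.52, 8.55 and 8.50 on the KL-FL arrays, 8.55, 8.55 and 8.55 on the KL1 arrays and 8.59, 8.59 and 8.60 on the controls. Each klotho array was below each control, with mean differences of -0.071 (SE 0.027, adjusted p = 0.688) with KL-FL and -0.042 (SE 0.027, adjusted p = 0.927) with KL1 in limma. The KL1 arrays carried 1 identical value, shared with KL-FL replicate 2. Without overlap and lower were 3.25% of all genes with KL-FL and 4.34% with KL1, so 1 of 29 is close to the background, and 0 of 29 members lay above control without overlap, against 7.13% and 5.13% of all genes. FADS2, its partner enzyme, differed by -0.011 and -0.026, ELOVL6, which lengthens palmitate, by 0.015 and -0.023, and ACLY, which supplies cytosolic acetyl-CoA, by -0.036 and -0.055, for KL-FL and KL1 in turn. ACACA differed by 0.054 and -0.015, with KL-FL replicate 3 at 8.74 against 8.54 on both other KL-FL arrays. ACSS2 differed by 0.062 (standard error 0.14) with KL-FL, or -0.10 without KL-FL replicate 3, and by 0.019 (standard error 0.14) with KL1. Without control replicate 1 these were -0.038 and -0.081, and without control replicate 3 0.17 and 0.13.

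**Figure D4:**
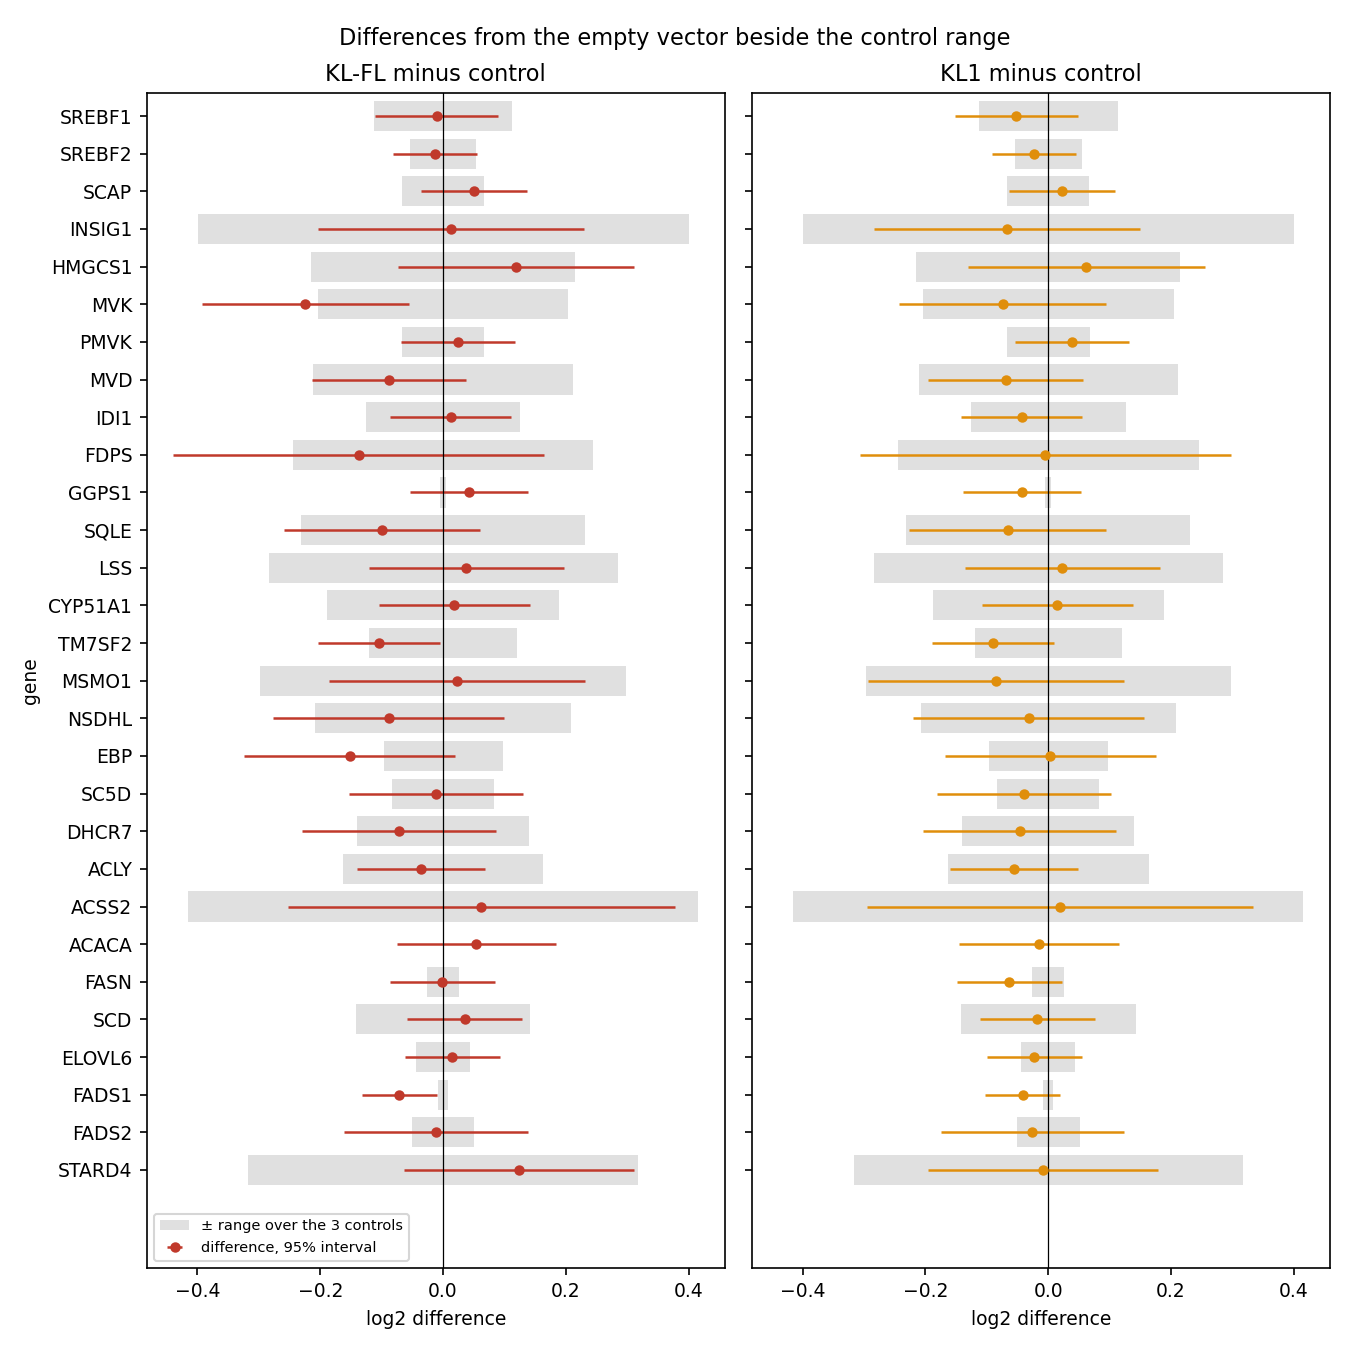
Points are the log2 difference from control of each gene, with KL-FL on the left and KL1 on the right, and lines their 95% intervals from limma. Grey bars reach as far to either side of 0 as the 3 controls of that gene spread. Most points lie inside their grey bar, and MVK, FADS1 and TM7SF2 are the genes whose KL-FL interval leaves 0 out before adjustment.

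Over the whole list, 15 of 29 genes lay below control with KL-FL, where 42.7% of all genes did, and the median difference was -0.0013, against 0.0099 for all genes. With KL1 22 of 29 lay below control, where 47.8% of all genes did, and the median was -0.032, against 0.0026 for all genes. Below control with KL1 were also 12 of 13 hypoxia targets, 14 of 16 glycolysis genes and 1 of 15 ER chaperones, with medians of -0.046, -0.066 and 0.21. Between KL-FL and KL1 10 of 29 were lower with KL-FL, where 45.6% of all genes were, with a median of 0.019 against 0.0058. Both comparisons with control share the same 3 control arrays, and their counts moved with those arrays. Without control replicate 1, 21 of 29 lay below control with KL-FL and 27 of 29 with KL1, and the medians were -0.030 and -0.062. Without control replicate 3 the counts were 11 and 19, and the medians 0.023 and -0.014. The KL-FL median also turned to 0.012 without KL-FL replicate 1, while without KL-FL replicate 3 it was -0.014. Under quantile normalization 13 and 19 of 29 lay below control, with medians of 0.011 and -0.013. With array weights in limma 22 and 25 of 29 did, with medians of -0.039 and -0.042, and 15 of 29 were lower with KL-FL than with KL1, with a median of -0.0066.

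The 5 members whose difference exceeded the range of the controls with KL-FL were MVK, GGPS1, EBP, ACACA and FADS1, and the 4 with KL1 were GGPS1, ACACA, FASN and FADS1. ACACA, GGPS1 and FADS1 had control ranges of 0, 0.0046 and 0.0080. The 3 members at an unadjusted p under 0.05 with KL-FL were MVK, FADS1 and TM7SF2, all lower, where 2.28% of all genes were lower and 4.88% higher at that p. For KL1 2.11% of all genes were lower and 2.99% higher at that p, and between KL-FL and KL1 1.55% and 3.49%, with 0 members in either. The 95% intervals of single members reached down to -0.44 and up to 0.38 for KL-FL against control, in FDPS and ACSS2, and down to -0.31 and up to 0.33 for KL1, in the same genes. FDPS and ACSS2 had the largest standard errors of the list, 0.13 and 0.14, and FADS1 the smallest, 0.027. What 3 arrays a group could show thus differed between genes. The labels state no pairs of arrays, and a check on the deviations of same-numbered KL1 and control arrays could not settle the matter. With the replicate number as a block 0 members and 0 of all genes were called for KL1, against 0 members and 1 gene without it. The differences, standard errors and p-values given here for KL1 come from the fit without the block.

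Genes next to the list were followed through 5 further lists, 43 of whose 53 genes were measured. None of the 43 was called in limma in any comparison. At an unadjusted p under 0.05 with KL-FL 1 was higher and 2 were lower, where 4.88% of all genes were higher and 2.28% lower. With KL1 also 1 was higher and 2 were lower at that p, where 2.99% of all genes were higher and 2.11% lower. Between KL-FL and KL1 2 were higher and 1 was lower, where 3.49% and 1.55% of all genes were. They did not have the order of the controls seen in the synthesis genes: control replicate 3 lay above replicate 1 in 18 of 43. Of other SREBP targets 4 of 8 lay below control with KL-FL and 6 with KL1, where 42.7% and 47.8% of all genes did. PNPLA3 among them, a lipid droplet enzyme, lay at -0.064 and -0.12. In the processing list RNF139, an ER ubiquitin ligase, differed by 0.070 with either vector, and INSIG2, the second INSIG, by 0.082 with KL-FL. INSIG2 differed by 0.28 between control replicates 3 and 1, on the same side as INSIG1.

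Genes that act on surplus sterol, through the nuclear receptor LXR, lay on both sides. MYLIP, an LXR target that marks lipoprotein receptors for destruction, differed by -0.097 and -0.12 with KL-FL and KL1, and NR1H3, which encodes LXR alpha, by 0.071 and 0.11. In the isoprenoid side branches, which lead to ubiquinone, dolichol and protein prenylation, 3 of 7 lay below control with KL-FL and 4 of 7 with KL1, and COQ2 differed by -0.050 with KL-FL and PDSS1 by 0.10 with KL1. Fatty acid oxidation, the opposing pathway, had 8 of 12 genes below control with KL-FL and 9 of 12 with KL1. Over all genes the shares below control were 42.7% and 47.8%. The oxidation gene ETFDH, which passes electrons to ubiquinone, lay at 0.12 (SE 0.031, adjusted p = 0.607) with KL-FL in limma. With KL1 limma gave it -0.071 (SE 0.031, adjusted p = 0.927), and HADHA lay at -0.17 with KL-FL. Between KL-FL and KL1 the highest difference among the 12 was 0.19, and the smallest adjusted p in limma was 0.848.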

How the data were processed

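RNA of 9 HCT 116 samples was hybridised to an Affymetrix whole-transcript array from 100 ng, per the labels' protocols. The deposited table gives 1 value for each of 33297 probe sets and array, taken as log2 expression values from their range. Partek 6.6 is named in the submitters' processing notes, while background correction and normalization were not given in the sources used here. By the platform annotation 19181 probe sets name 1 gene, 2055 several and 12061 none, and only the first kind was used. Of these, 38 had no current gene identifier in the RefSeq table and 0 symbols changed. The brightest probe set was kept for each of 17958 genes.

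The deposited log2 values were fitted in limma 3.58.1 (R 4.3.3) over all genes and arrays with lmFit, contrasts.fit and eBayes, as two-sided tests, and p-values were adjusted by Benjamini-Hochberg over every gene at a threshold of 0.05. The fit was also run on simulated arrays with independent normal errors. Here 68.5% of all genes repeat a value between arrays, so that run does not show how the fit behaves on these data. Groups came from the sample labels. The genes and all lists were chosen with earlier results of these data known, so no list was tested. Values on every array are given for 8 core members, for the 3 members of smallest p in each direction of each comparison and for the 5 of widest control range, and in other pathway lists the 2 genes of smallest p in each comparison with control could be named. Single arrays of other members, and INSIG1's promoter, were chosen after their values were seen.

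Deviations of same-numbered KL1 and control arrays from their group means correlated at 0.113, 0.322 and 0.186 over genes. Arrays of different numbers were not compared in this way and the labels state no pairs, so this check cannot decide whether arrays were paired. The values printed come from the fit without the replicate number, and the fit with it as a block was an alternative. Those of KL-FL and control correlated at 0.0974, -0.000404 and -0.00729. Alternatives were another scaling, a filter on dim genes, other probe set choices, variance models, array weights, the replicate number as a block, and leaving out each array.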

Additional observations from a re-analysis of the deposited data

How the results depend on the processing

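No member was called in any of the 3 comparisons under any alternative run. The smallest adjusted p over all of them was 0.0579, for MVK in KL-FL against control with array weights in limma. The median difference of the members ranged from -0.039 to 0.023 for KL-FL against control, from -0.062 to -0.013 for KL1 against control and from -0.0066 to 0.040 for KL-FL against KL1. The count of all genes called in KL-FL against control was 1. It became 0 with each gene's own variance or with only the 6 arrays compared, and 523 with array weights. When single arrays were left out it ran from 0 to 1. Without KL1 replicate 2 the 1 gene called was lower, so it was not DDIT3. In KL1 against control the count was 1, and became 0 with each gene's own variance and 2 with array weights. There too it ran from 0 to 1 when single arrays were left out. Between KL-FL and KL1 it was 0 and became 1 both with each gene's own variance and with array weights. A replicate block in the design left 0 genes called in each comparison, and the block changed no call of a member. The range of the member mean over the 3 controls was 0.124, and ran from 0.045 without control replicate 1 to 0.124 without control replicate 2, with 0.079 without control replicate 3. Among single members SCD turned to -0.040 in KL-FL against control when its probe sets were averaged, and HMGCS1 to -0.040 in KL-FL against control and -0.070 in KL-FL against KL1 with array weights. With array weights the difference changed sign in 9 of 29 members for KL-FL against control, 3 for KL1 against control and 9 for KL-FL against KL1. Among them in KL-FL against control ACSS2 became -0.14, INSIG1 -0.12 and FADS2 0.073. Leaving out at least one of the single arrays changed the sign in 18, 15 and 15 of 29 members in the same 3 comparisons. The cause of these changes was not tested. With 3 arrays a group and no detection call, signal over background could not be judged.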
